A study of Homo sapiens with 2 samples.

Results

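miR-183-5p, miR-96-5p and miR-182-5p are the guide arms (the strand of each hairpin that is mostly loaded into Argonaute) of the miR-183 cluster. They were taken by name from the 2038 mature miRNA names of each deposited table, and all 3 were listed in both. Small RNA was profiled in FadU (FaDu), an established line of hypopharyngeal squamous cell carcinoma, as sphere cells and as parental cells, with 1 library per group. Sphere cells, described in the labels as cancer stem cells derived from spheres, grew in tumor sphere medium, for which no serum is named, made of DMEM-F12 to which EGF and recombinant bFGF (10 ng/ml each) and N2 Plus Supplement were added. Parental cells grew in RPMI-1640 with 10% FBS. Both media held 1% penicillin-streptomycin. Medium, serum and growth form changed together with the group, so their parts in any difference cannot be told apart. No value below has a replicate check, and no test between the conditions was possible.

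The 3 miRNAs are cut from 1 primary transcript and have closely related seeds, the bases with which a miRNA pairs to its target mRNAs. The cluster is known for its high expression in sensory cells of the retina and inner ear, where mutations in the seed of miR-96 cause hereditary hearing loss. It is also often abundant in carcinomas. miR-182 and miR-96 are known to repress FOXO transcription factors, and miR-183 to repress ezrin and integrin beta 1.

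The mature sequences are shown because the 3 members differ in few seed bases, which are in capitals (bases 2 to 8, counted from the 5′ end). Sequences and positions are those of RefSeq on GRCh38.p14, whereas the submitters' notes name hg19 for their own processing. All 3 lie on the minus strand of chromosome 7, miR-183-5p at chr7:129774967-129774988, miR-96-5p at chr7:129774739-129774761 and miR-182-5p at chr7:129770447-129770470. miR-1271-5p, from the plus strand of chromosome 5 (chr5:176367960-176367981), is shown as the only other listed miRNA, among the 1714 with a RefSeq mature sequence, with the seed of a member.
miR-183-5p: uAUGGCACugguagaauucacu
miR-96-5p: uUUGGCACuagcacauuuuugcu
miR-182-5p: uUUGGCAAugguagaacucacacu
miR-1271-5p: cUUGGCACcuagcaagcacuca

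Between miR-183-5p and miR-96-5p the seeds differed at 1 base (A2U, written as base of the first, position, base of the second). miR-96-5p and miR-182-5p differed there at C8A alone. The pair of miR-183-5p and miR-182-5p had both differences, A2U and C8A, and so shared 5 of 7 seed bases. Beyond the seed the order of likeness turned round. Compared position by position without gaps, miR-183-5p and miR-182-5p were identical at 18 of 22 positions, including a run of 8 bases from position 9, and differed outside the seed only at U17C and U22A. miR-96-5p matched miR-183-5p at 13 of 22 positions and miR-182-5p at 12 of 23.

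The hairpins of MIR96 and MIR182 are shown with the guide arm and the opposite arm in capitals, since reads of both arms were listed separately. MIR96 lies at chr7:129774692-129774769 and MIR182 at chr7:129770383-129770492, both on the minus strand of GRCh38.p14. The opposite arm of MIR183 is given beside them with its own bases 2 to 8 in capitals (chr7:129774928-129774949, minus strand).
MIR96 hairpin: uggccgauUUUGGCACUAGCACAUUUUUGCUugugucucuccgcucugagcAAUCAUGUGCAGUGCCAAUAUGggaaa
MIR182 hairpin: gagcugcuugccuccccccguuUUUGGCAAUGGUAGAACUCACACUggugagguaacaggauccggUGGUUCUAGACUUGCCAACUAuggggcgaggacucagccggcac
miR-183-3p: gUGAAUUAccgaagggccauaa

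In GENCODE release 29 (GRCh38) the 3 hairpin genes span 4632 bases, and no other annotated gene overlaps this span on either strand. MIR183 and MIR96 are 135 bases apart, while MIR96 and MIR182 are separated by 4199 bases. The nearest protein-coding genes are NRF1, which ends 13300 bases from MIR182, and UBE2H, whose nearer edge lies 55717 bases beyond MIR183.

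The tables give RPKM, reads per length of the miRNA and per total of reads, as computed by the authors. Which reads make up that total is not stated. RPKM summed to 5509071 over the miRNAs of the sphere library and 26530004 over those of the parental library. For shares of miRNA, the values of a library were divided by their sum and multiplied by 1000000, which gives the rescaled RPKM used below. Reads were estimated from the commonest low value, taken as 1 read on 22 nt (8.07 RPKM in spheres and 5.84 RPKM in parental cells), and from each miRNA's own RefSeq length. This put about 5630047 reads behind the sphere RPKM and 7782765 behind the parental RPKM. Of these, an estimated 682359 lay on miRNAs in spheres and 4542489 in parental cells. For these miRNA totals every miRNA was taken as 22 nt long, rather than at its RefSeq length. Squamous epithelial marker miRNAs were measured in both libraries (5 of 5 listed, 83300 rescaled RPKM in sum in spheres and 37310 in parental cells). Most of this difference lay in miR-203a (35056 in spheres and 2698 in parental cells) and miR-141-3p (12264 in spheres and 2710 in parental cells), while miR-205-5p had 19458 in spheres and 21938 in parental cells. No blood marker was measured (0 of 5), although their sum was 34.1 rescaled RPKM in spheres and 3.78 in parental cells. Endothelial markers (2 of 2 measured) summed to 445 in spheres and 192 in parental cells, smooth muscle and fibroblast markers (1 of 3) to 69.1 in spheres and 26.9 in parental cells, and neural markers (2 of 3) to 658 in spheres and 660 in parental cells. Muscle markers (0 of 3 measured) summed to 17.0 in spheres and 1.98 in parental cells. The liver miRNA miR-122-5p was listed at 0 in both libraries. Of 4 pluripotent cell markers none was measured, the 3 miR-302 members were listed at 0 in both, and miR-371a-5p had 3.22 in spheres and 0.242 in parental cells, each below the value of 3 reads. The part of the marker differences in the values of the cluster was not tested. In bulk RNA, fewer cells with a miRNA and less of it per cell cannot be told apart.

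As a share of miRNA the cluster stayed close between the libraries. The 3 guide arms together held 11399 rescaled RPKM, or 1.14% of the miRNA signal, in spheres and 10762, or 1.08%, in parental cells. The ratio of spheres to parental cells was 1.06 (95% counting interval 1.03 to 1.08). Intervals of ratios are exact Clopper-Pearson intervals of estimated reads, and those of levels are exact Poisson intervals. They describe the 2 libraries rather than the conditions, and only counting error is in them. They also take reads as independent, although PCR copies are not independent molecules.

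miR-182-5p carried nearly the whole signal of the cluster. It had 57588 RPKM as deposited in spheres and 265450.5 RPKM in parental cells. As rescaled values these are 10453 in spheres (95% counting interval 10222 to 10688) and 10006 in parental cells (9918 to 10094). The miRNA thus took 1.05% of the miRNA signal in spheres, where it ranked 18th of 672 miRNAs above 0, and 1.00% in parental cells, where it ranked 14th of 903. The rescaled ratio was 1.04 (1.02 to 1.07), a log2 fold of 0.06. The sign of this small difference depended on the scaling, with log2 folds of 0.13 to -0.21 under the 4 other scalings within miRNA.

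miR-183-5p, the member encoded first in the transcript, was far less abundant. Its deposited level was 4954 RPKM in spheres and 19475 RPKM in parental cells. The rescaled level was 899 in spheres (830 to 974) and 734 in parental cells (709 to 760), on about 614 estimated reads in spheres and 3335 in parental cells. On this scale the intervals of the libraries did not overlap. The rescaled ratio was 1.22 (1.12 to 1.34), or 0.29 in log2, within the 2-fold limit used to call a miRNA higher or lower. Under the 4 other scalings within miRNA the log2 fold lay between 0.02 and 0.36. It was 0.085 under the median of ratios and 0.021 without the 20 most abundant. Both lay below the log2 counting interval of the main scaling (0.17 to 0.42), so the size of this difference depended on the scaling.

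miR-96-5p, the least abundant member, had the highest fold. It was deposited at 255 RPKM in spheres and 589 RPKM in parental cells, which are 46.3 rescaled RPKM in spheres (31.8 to 65.0) and 22.2 in parental cells (18.3 to 27.0). It ranked 166th by level in spheres and 200th in parental cells. The level in spheres rested on 33 estimated reads and that in parental cells on 105.5. The rescaled ratio was 2.08 (1.36 to 3.09), and the log2 fold, which includes the pseudocount of 0.5, was 1.04, so that the point value lay just past 2-fold while its interval reached well below it. The call was lost when the columns were scaled to the median of ratios (log2 fold 0.84) or to the total after dropping the 20 most abundant (0.77), and with a pseudocount of 5 (0.91).

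**Figure D1:**
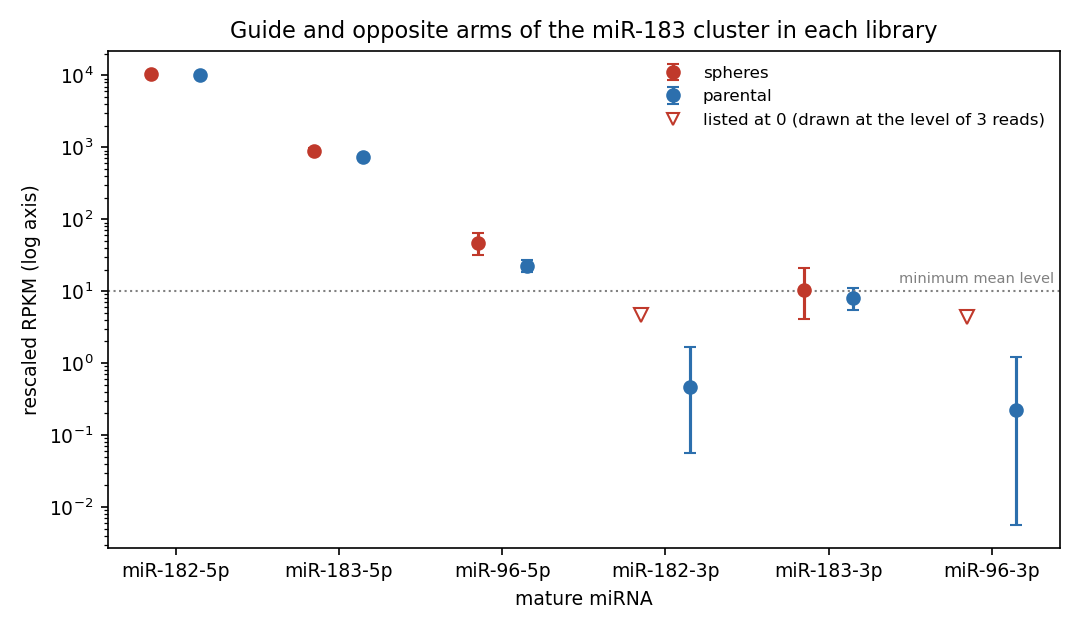
Level of the 3 guide arms and of the 3 opposite arms, in rescaled RPKM on a log axis, in the sphere library (red) and the parental library (blue). Bars are exact 95% Poisson intervals of the estimated reads, and triangles mark arms listed at 0 in spheres, drawn at the level of 3 reads. miR-182-5p lies at 10453 in spheres and 10006 in parental cells, miR-183-5p at 899 in spheres and 734 in parental cells, miR-96-5p at 46.3 in spheres and 22.2 in parental cells, and the opposite arms at or below about 10.

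All 3 members passed the minimum level (10 rescaled RPKM as the mean of spheres and parental cells) and were above 10 in each library. Of the 269 miRNAs that passed it, 23.0% were at least 2-fold higher in spheres and 19.0% at least 2-fold lower. In the cluster 1 of 3 was higher and none lower, a share from so few members that it cannot be told from this background. Ordered from the highest log2 fold down, miR-96-5p stood 60th of 269, miR-183-5p 114th and miR-182-5p 131st. The median log2 fold of the members was 0.29, against 0.02 over all 269. The members were picked with earlier results of these libraries known.

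**Figure D2:**
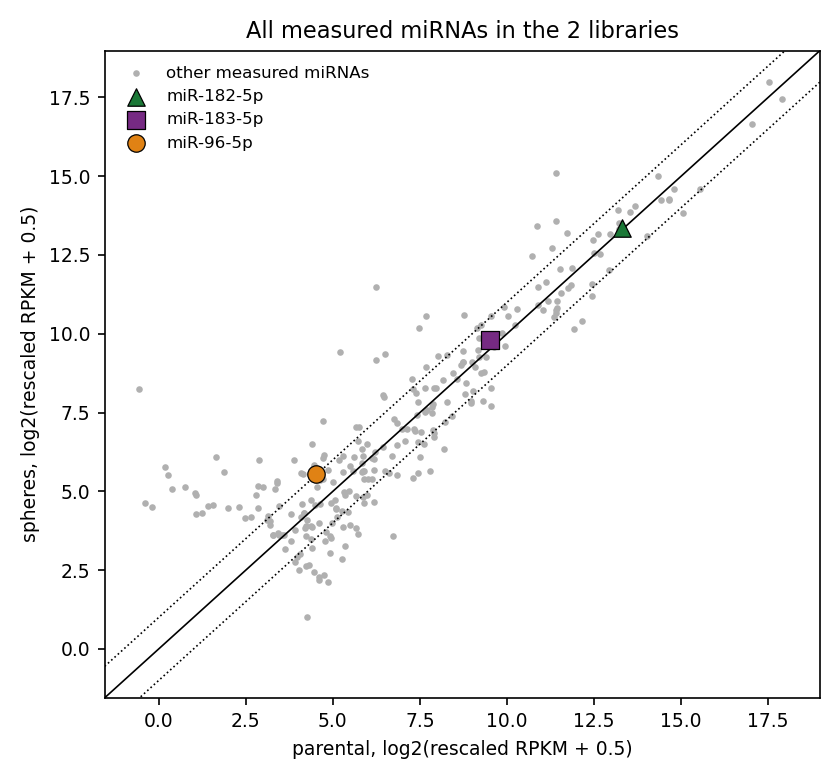
Each point is 1 of the 269 measured miRNAs, by its log2(rescaled RPKM + 0.5) in parental cells (horizontal axis) and in spheres (vertical axis). The solid line marks equal levels and the dotted lines 2-fold. miR-182-5p and miR-183-5p lie close to the line of equal levels, and miR-96-5p lies at the upper dotted line.

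On the deposited scale all 3 members were lower in spheres. miR-182-5p was 4.61-fold lower (95% counting interval 4.50 to 4.72), with a log2 fold of -2.20. miR-183-5p was 3.93-fold lower (3.60 to 4.29) and had -1.97 in log2. miR-96-5p was 2.31-fold lower (1.56 to 3.55) and had -1.21. Most miRNAs did the same, since 79.6% of the 269 were at least 2-fold lower as deposited and 6.32% at least 2-fold higher. The median log2 fold of all 269 on this scale was -2.25, and that of the members -1.97. By the read estimate, miRNAs made up 12.1% of the reads behind the RPKM in spheres and 58.4% in parental cells. miRNA per cell was not measured.

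**Figure D3:**
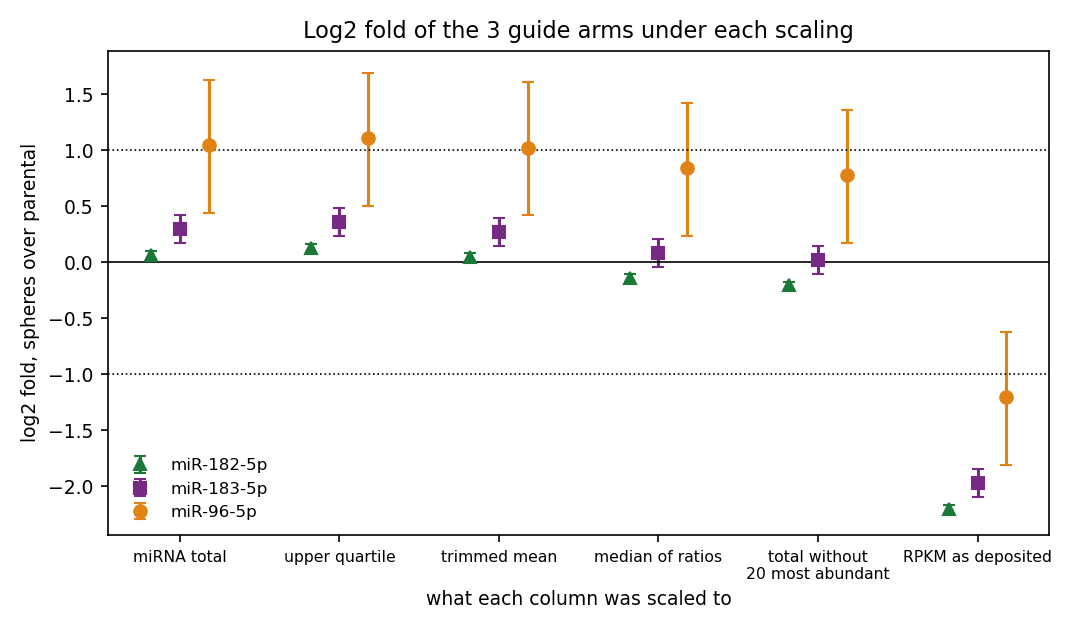
Log2 fold (spheres over parental cells) of each guide arm under 6 scalings, with the 95% counting interval as bars and dotted lines at 2-fold. The order of miR-182-5p, miR-183-5p and miR-96-5p from low to high is the same throughout. This was fixed in advance, since a scaling shifts all 3 alike apart from the pseudocount. The deposited scale moves all 3 below -1.

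The balance among the members does not depend on how a library is scaled. miR-182-5p made up 91.7% of the RPKM of the 3 guide arms in spheres and 93.0% in parental cells. The difference was -1.27 percentage points (95% interval -1.89 to -0.68). This interval was set around the RPKM difference, with its width taken from Newcombe's method on the estimated reads. miR-183-5p made up 7.89% in spheres and 6.82% in parental cells. miR-96-5p made up 0.406% in spheres and 0.206% in parental cells. Both of the less abundant members thus took a larger part of the cluster in the sphere library.

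Ratios between members show the same in pairs. Per length, miR-182-5p exceeded miR-183-5p 11.6-fold in spheres and 13.6-fold in parental cells. Relative to miR-182-5p, miR-183-5p was therefore 1.17 times higher in the sphere library (exact conditional 95% interval of the odds ratio of reads, 1.07 to 1.28). miR-182-5p exceeded miR-96-5p 226-fold in spheres and 450-fold in parental cells, so miR-96-5p was 1.99 times higher relative to it (1.30 to 2.96). miR-183-5p exceeded miR-96-5p 19.4-fold in spheres and 33.0-fold in parental cells, a relative difference of 1.70 (1.10 to 2.55). The 3 intervals are not adjusted for the 3 pairs. They lay above 1, though differences in ligation or alignment between libraries are not part of them.

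The opposite arms were scarce in both libraries, and the guide arm held nearly all of each hairpin. miR-183-3p, the best covered of them, had 56.5 RPKM in spheres and 210 RPKM in parental cells, on 7 estimated reads in spheres and 36 in parental cells. It made up 1.13% of the reads of its hairpin in spheres (exact binomial 95% interval 0.454% to 2.31%) and 1.07% in parental cells (0.749% to 1.48%). The arm balance of MIR183 differed by less than counting error, with a relative ratio of 1.06 (0.395 to 2.42). At a mean below 10 rescaled RPKM, miR-183-3p was not among the measured miRNAs.

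miR-182-3p was listed at 0 in spheres and at 12.2 RPKM in parental cells, where it had 2 estimated reads. In spheres, 0 of 7781 reads of the hairpin allow a share of up to 0.0386% (3 reads of that total). In parental cells the share was 0.00403% (0.000488% to 0.0146%). The part of the opposite arm was thus lower for MIR182 than for MIR183 in both libraries, with intervals that did not overlap in the parental library and a limit below the interval of MIR183 in spheres. miR-96-3p was listed at 0 in spheres, or 0 of 33 reads of its hairpin, which allows a share of up to 9.09% (3 reads of that total), and at 5.84 RPKM in parental cells, on 1 estimated read. Its share there, 0.935% (0.0237% to 5.10%), had an interval that included that of MIR183 and lay above that of MIR182, on this 1 read.

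The estimated reads bear on how the members were counted. At their RefSeq lengths the opposite arms above 0 came out within 0.01 of a whole read (7 in spheres and 36 in parental cells for miR-183-3p, and in parental cells 2 for miR-182-3p and 1 for miR-96-3p), as did miR-96-5p in spheres (33). miR-96-5p in parental cells came out at 105.5 reads. miR-182-5p (7781.3 in spheres and 49582.5 in parental cells) and miR-183-5p (613.6 in spheres and 3334.6 in parental cells) did not come out whole by the same measure. How reads matching more than 1 name were divided is not stated in the labels or files. Among all low values with a RefSeq length, between 0.9 and 5 times the commonest value, 63.7% of 179 in spheres and 59.8% of 239 in parental cells were whole within a relative tolerance of 0.001.

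miR-1271-5p, which has the seed of miR-96-5p, was listed at 0 in spheres and at 2.85 RPKM in parental cells, less than the value of 1 read. Among the 1714 listed names with a RefSeq mature sequence, miR-96-5p was therefore nearly the only source of this seed in both libraries. No other of these names had exactly the seed of miR-183-5p or of miR-182-5p. The remaining listed names were not compared.

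The measured miRNAs most like each member were taken as the 2 nearest of the 266 others by distance of log2(rescaled RPKM + 0.5) over the 2 libraries. miR-191-5p (10241 rescaled RPKM in spheres and 9496 in parental cells) and miR-26a-5p (11770 in spheres and 9562 in parental cells) lay nearest to miR-182-5p, at distances of 0.081 and 0.18. For miR-183-5p these were miR-148b-3p (765 in spheres and 793 in parental cells, distance 0.26) and the epithelial miR-200c-3p (925 in spheres and 585 in parental cells, distance 0.33). miR-96-5p was nearest to miR-1260a (40.8 in spheres and 24.2 in parental cells, distance 0.21) and miR-1260b (41.4 in spheres and 25.6 in parental cells, distance 0.25). A pattern over 2 libraries holds only a level and a fold, so likeness here says no more than that both were close.

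Other clusters of 3 miRNAs give a scale for the spread within the miR-183 cluster. The log2 folds of its members ranged over 0.98, from 0.06 for miR-182-5p to 1.04 for miR-96-5p. The range was 0.77 in the miR-106b cluster and 0.96 in the miR-99b cluster. It was 2.87 in the epithelial miR-200b cluster, where miR-200a-3p had 2.57 and miR-200b-3p -0.30. Scaling moves such ranges only through the pseudocount (1.00 in the miR-183 cluster on the deposited scale). The spread within the miR-183 cluster was thus close to that of a pair of the 3 others, and it was not tested against them.

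The miR-183 cluster was the most uneven of the 4 in level. Its most abundant member exceeded its least abundant one 226-fold in spheres and 450-fold in parental cells. This ratio was 35.8-fold in spheres and 7.81-fold in parental cells for the miR-200b cluster, 22.7-fold in spheres and 38.6-fold in parental cells for the miR-106b cluster, and 6.93-fold in spheres and 13.4-fold in parental cells for the miR-99b cluster. In the miR-183, miR-106b and miR-99b clusters the most abundant member (miR-182-5p, miR-25-3p and let-7e-5p) had the lowest log2 fold and the least abundant one (miR-96-5p, miR-106b-5p and miR-125a-5p) the highest. The miR-200b cluster was the exception, with the highest fold in its most abundant member by mean level, miR-200a-3p. In the miR-99b cluster the log2 folds of miR-125a-5p (0.58) and miR-99b-5p (0.52) were close, and no interval was computed for their order. Whether fold goes with level over all measured miRNAs was not tested.

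**Figure D4:**
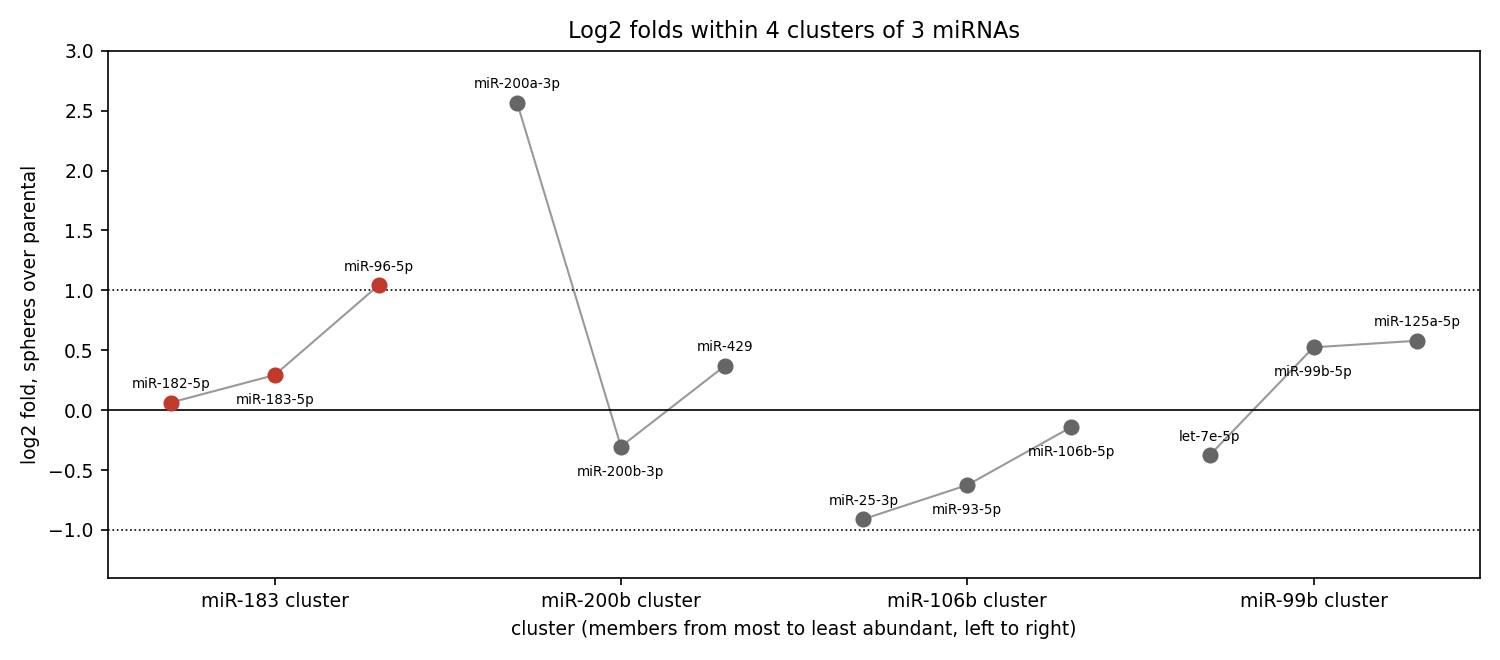
Log2 fold (spheres over parental cells, rescaled RPKM) of the guide arms of 4 clusters of 3 miRNAs, each ordered from its most to its least abundant member by mean level, with dotted lines at 2-fold. In the miR-183 cluster (red) the folds go up from 0.06 to 1.04 as the level falls, and in the miR-200b cluster miR-200a-3p stands at 2.57.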

How the data were processed

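Libraries were made with the TruSeq small RNA kit from 1 µg of total RNA with size fractionation, per the labels' protocols. The submitters' processing notes name hg19. The aligner, counting tool and miRNA annotation were not stated there. The deposited values are the authors' RPKM, as their column header says, for 2038 names and 2 libraries. Since RPKM are not counts, no count model was used.

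Columns were rescaled to 1000000. Log2 folds are those of (value + 0.5) on either scale; this pseudocount makes folds of low miRNAs smaller. Measured miRNAs are those whose 2 rescaled values average 10 or more, and 2-fold was the limit for higher or lower. Estimated reads, rounded to whole reads, served for the 95% intervals. A value of 0 allows up to 3 reads. Alternatives were 5 scalings, 2 pseudocounts, 2 filters, an interval rule and summed arms. The rescaling, the calling of planted folds and the interval of a ratio were tested on simulated Poisson counts. The planted folds were larger than the rescaled ratios of the members. The other scalings, the shares, the arms and the read estimate were not tested in this way. Named miRNAs were the members, their opposite arms, miRNAs with a member's seed, the 2 nearest miRNAs of each member and 3 other clusters fixed by name. Members and lists were chosen with earlier results of these data known. Python 3.11.15 with scipy 1.17.1 and pandas 2.3.3 was used.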

Additional observations from a re-analysis of the deposited data

How the results depend on the processing

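RPKM as deposited gave log2 folds of -2.20 for miR-182-5p, -1.97 for miR-183-5p, -1.21 for miR-96-5p (the reverse of its 1.04) and -2.18 for the sum, because the miRNA total differs between the libraries. The median of ratios gave -0.14, 0.085 and -0.13 for miR-182-5p, miR-183-5p and the sum, scaling to the total after dropping the 20 most abundant gave -0.21, 0.021 and -0.19, and the upper quartile 0.13 for miR-182-5p and 0.15 for the sum. A rule that the entire interval must pass 2-fold ended the call of miR-96-5p (1.04), as did a pseudocount of 5 (0.91). Counts of higher and lower miRNAs were 193 and 180 with no filter, 23 and 18 at a mean of at least 100, and 17 and 214 as deposited, against 62 and 51. The share of miR-182-5p within the cluster moved little with estimated reads (-1.18 points) or both arms (-1.28). No paired analysis was possible because each group has a single library, so no replicate could be left out either. miR-96-5p rested on 33 sphere reads.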
